A study of Mus musculus with 8 samples.

Results

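The 10 genes described here encode enzymes that make serine, move single carbon units on folate and build asparagine and proline, together with the transcription factor Atf4. They were chosen by name, as *Phgdh*, *Psat1*, *Psph*, *Shmt1*, *Shmt2*, *Mthfd1*, *Mthfd2*, *Asns*, *Atf4* and *Aldh18a1*, and all 10 were found among the 20172 genes of the deposited table. RNA was measured in regulatory T cells (Tregs) sorted as YFP+ CD4 T cells from spleens of adult female *Foxp3* CreYFP mice, labelled Foxp3 YFP-cre, in which yellow fluorescent protein and Cre recombinase are made by cells that express Foxp3. Both groups carry this reporter and no treatment is given for either, and they differ in whether the sorted cells stained for TNFR2, a receptor of tumor necrosis factor, on their surface. Each group, TNFR2+ and TNFR2- Tregs, has 4 libraries (replicates 1 to 4). Nothing in the labels says whether a library is 1 mouse or a pool, so p values measure the spread between these libraries, which may be technical.

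Serine is made from a glycolytic intermediate, 3-phosphoglycerate, by the enzymes Phgdh, Psat1 and Psph in turn. Serine then gives a carbon unit to tetrahydrofolate through serine hydroxymethyltransferase, and the folate-bound carbon is used to build purines and thymidylate. The mitochondrial enzymes Shmt2 and Mthfd2 and the cytosolic enzymes Shmt1 and Mthfd1 run this cycle in the respective compartments. Atf4 is the main transcription factor of the response to amino acid shortage, and *Phgdh*, *Psat1*, *Shmt2*, *Mthfd2*, *Asns* and *Aldh18a1* are among its known targets. Activated T cells raise serine and folate enzymes when they enter division.

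The stretches before the RefSeq start of *Psat1*, *Asns* and *Aldh18a1* are shown because *Psat1* is the gene of the set that passed the test, and *Asns* and *Aldh18a1* are those whose window held a match. They are RefSeq sequences of GRCm38.p6, each 120 bases long and ending at the base before the start, written 5′ to 3′ on the gene's own strand, at chr19:15925060-15925179, chr6:7693210-7693329 and chr19:40588464-40588583, all on the minus strand. The gene spans given below are from GENCODE, and need not begin at the RefSeq starts. The whole stretch of *Psat1* lies inside its GENCODE span, and that of *Asns* lies partly inside. Capitals mark matches to TGATGNAA, the core of the element that C/EBP and ATF proteins bind, or to CACGTG, the E-box.
Psat1: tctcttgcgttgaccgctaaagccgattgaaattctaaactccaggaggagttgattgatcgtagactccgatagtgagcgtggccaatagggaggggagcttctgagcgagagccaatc
Asns: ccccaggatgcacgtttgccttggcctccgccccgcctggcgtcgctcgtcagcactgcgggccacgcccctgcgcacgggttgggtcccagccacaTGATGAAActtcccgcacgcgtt
Aldh18a1: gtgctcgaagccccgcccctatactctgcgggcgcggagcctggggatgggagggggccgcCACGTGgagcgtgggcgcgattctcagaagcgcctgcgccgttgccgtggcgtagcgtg
Windows of 250 bases before to 50 after the RefSeq start were searched on both strands for all 10 genes, 11 windows in all because *Psat1* has a second start. The windows of *Psat1* and *Mthfd2* lie wholly inside the GENCODE span of the gene. TGATGNAA was found in 1 of the 11, that of *Asns*, 23 bases before the start, and in 3.97% of all 32851 windows in RefSeq. CACGTG was found in 1 of the 11, that of *Aldh18a1*, 59 bases before the start, and in 7.15% of all windows. The motifs do not overlap each other, and a missing match says only that these letters are not in this window.

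The deposited values are counts per gene divided by a size factor per library (normalized counts). Library sums lay between 9576920 and 11492762, and the spacing of low values gave an estimated 9100000 to 12110000 reads per library, so that a read was worth between 0.85 and 1.152 normalized counts. *Foxp3* was abundant in every library, with 3126 ± 219 normalized counts (SD, n = 4) in TNFR2+ and 3664 ± 316 in TNFR2- Tregs (log2 fold change of TNFR2+ against TNFR2- Tregs −0.23, adjusted p = 0.232). Of 10 listed Treg identity genes, *Foxp3* among them, 5 passed as higher and 0 as lower, against 4.52% and 3.39% of all genes tested. The 5 were *Ikzf2* (0.95), *Ikzf4* (0.90), *Ctla4* (0.89), *Nrp1* (0.76) and *Cd3e* (0.51). *Il2ra* was lower without overlap (−0.34, adjusted p = 0.0860). *Tnfrsf1b*, which encodes TNFR2, was at 2501 ± 544 and 1321 ± 168 (log2 fold change 0.90, adjusted p = 0.00449, and 0.0574 without an intensity trend in the variances). TNFR2- Treg replicate 3 stood apart on the second principal component, at 91.32 against −39.08 to 17.96 in the other 7 libraries, and values of the 10 genes without it are given where they differ. Most proliferation genes separated the groups, and 10 of 15 listed markers passed as higher in TNFR2+ Tregs, against 4.52% of all genes tested. Among the 5 that did not pass, *Pcna* went the other way (−0.17, adjusted p = 0.573). *Tk1* and *Ccnb1* overlapped between the groups, and *Ccnb1* reached the mean needed for testing only through TNFR2+ Tregs (31.5 against 6.61). The summed normalized counts of all 15 were 8530 to 13010 in TNFR2+ and 3299.5 to 4827 in TNFR2- Tregs. Of the markers of other cells, 8 of 10 B cell genes had summed values of 413 to 533 in TNFR2+ and 206 to 480 in TNFR2- Tregs. The corresponding ranges were 1700.3 to 2526 and 1289 to 1752 for 6 of 8 plasma cell genes, most of it *Xbp1*, *Irf4* and *Prdm1*, which Tregs also express. They were 36.1 to 81.3 and 50.6 to 128 for 6 of 12 myeloid genes, 148 to 236 and 104 to 170.0 for 7 of 10 cytotoxic lymphocyte genes, and 12.2 to 221 and 41.9 to 178 for 2 of 10 erythroid and platelet genes. Of the tested genes in these lists, 0 passed as lower (also 0 with limma p unadjusted at 0.05), against 3.39% of all genes tested. *Prdm1* and the cytotoxic gene *Nkg7* passed as higher, at 1.53 (adjusted p = 0.0210) and 3.19 (adjusted p = 0.00927), against 4.52% of all genes. *Nkg7* reached the mean needed for testing only through TNFR2+ Tregs (64.3 against 7.83). The other tested cytotoxic genes did not pass, with *Cd8b1* at 0.04, *Eomes* at 0.11 and *Prf1* at −1.09. In TNFR2+ Tregs most of the B cell sum came from *Cd22*, at 273 to 350 normalized counts. In TNFR2- Tregs *Cd22* was at 54.7 to 223, with no overlap (log2 fold change 1.20, adjusted p = 0.0612). It was not most of the sum in TNFR2- Treg replicate 3 (223 of 480) or replicate 4 (54.7 of 206, with *Ms4a1* at 65.9). Of the other B cell genes, *Ms4a1* was at 19.6 to 99.4, *Ebf1* at 25.9 to 80.4, *Cd79b* at 2.25 to 64.6 and *Cd79a* at 0 to 6.10 over the 8 libraries. The platelet gene *Itga2b* was at 12.2 to 221, and the myeloid gene *Csf1r* was listed at 0 in every library but TNFR2- Treg replicates 3 and 4 (9.19 and 5.87). The part of other cells or of dividing cells in the results that follow was not tested.

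Levels differed widely among the 10 genes. Per kilobase of the longest annotated coding transcript, *Atf4* was the highest, with a mean of 1664 normalized counts per kilobase over the 8 libraries (range 1418 to 1996), and it lay above the next gene in 8 of 8 libraries. *Phgdh* followed at 179 (106 to 318) and *Shmt2* at 133 (67.7 to 183). *Phgdh* exceeded *Shmt2* in 6 of 8 libraries, and *Shmt2* exceeded *Mthfd2* in 7. *Mthfd2* (113), *Aldh18a1* (109) and *Mthfd1* (102) did not differ beyond their spread, since *Mthfd2* lay above *Aldh18a1* in 5 libraries and *Aldh18a1* above *Mthfd1* in 3. *Psat1* (79.4), *Psph* (53.1) and *Shmt1* (27.3) came below them over the 8 libraries, and each of their ranges overlapped that of its neighbour. This order was not the same in both populations. In TNFR2+ Tregs the mean of *Psat1* per kilobase was 122 ± 37.8 (SD, n = 4), beside 124 ± 11.2 for *Mthfd2*, 117 ± 17.7 for *Mthfd1* and 114 ± 15.9 for *Aldh18a1*, and *Shmt1* (40.2 ± 18.6) was level with *Psph* (39.5 ± 13.8). In TNFR2- Tregs *Psat1* was at 36.5 ± 8.04 per kilobase, under the mean of *Psph* (66.8 ± 75.7) but within its spread. *Asns* was the lowest of the set, at 16.1 per kilobase and between 0 and 60.7.

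**Figure D1:**
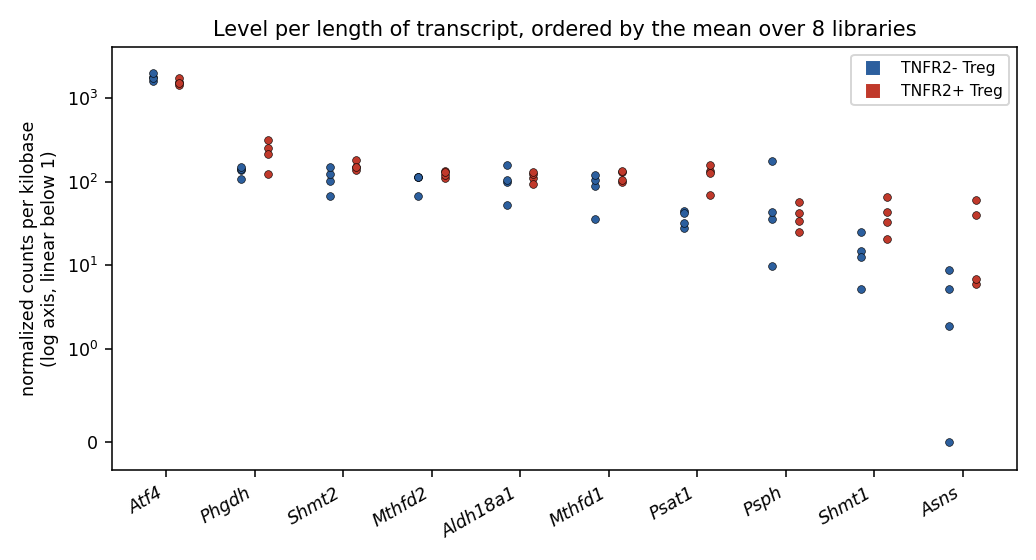
Normalized counts per kilobase of the longest coding transcript (y axis, log scale above 1 and linear below) of the 10 genes in the 4 TNFR2- (blue) and 4 TNFR2+ (red) libraries, a point per library. *Atf4* lies above every other gene in all 8 libraries, and *Asns*, the last, is listed at 0 in 1 TNFR2- library.

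Between the populations, 1 of the 10 genes passed the test. *Psat1* was about 3.24 times as high in TNFR2+ as in TNFR2- Tregs, and for the other 9 genes the difference did not pass the threshold of 0.05 on the adjusted p (limma over 13990 genes, Benjamini-Hochberg). Over all genes tested, 7.91% passed, 4.52% higher and 3.39% lower, so a count of 1 in 10 lies near the background. All 10 genes had a mean of at least 10 and were tested, although *Asns* reached that mean only through TNFR2+ Tregs. Their median log2 fold change was 0.55, against −0.01 over all genes, and 8 of the 10 estimates were above 0, against 49.3% of all genes. With p left unadjusted, 5 were higher and 0 lower at 0.05, against 12.3% and 10.7% of all genes. *Asns* is among these 5 and among the 8 estimates above 0, and its value enters the median. The 10 genes were chosen with earlier results of these data known, so these counts and the median describe the set only. The groups did not overlap in 1 of the 10 genes, the higher *Psat1*, against 15.4% of all genes (8.08% higher and 7.29% lower). In sorted cell populations, more transcript per cell and a larger share of cells that express a gene cannot be told apart.

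**Figure D2:**
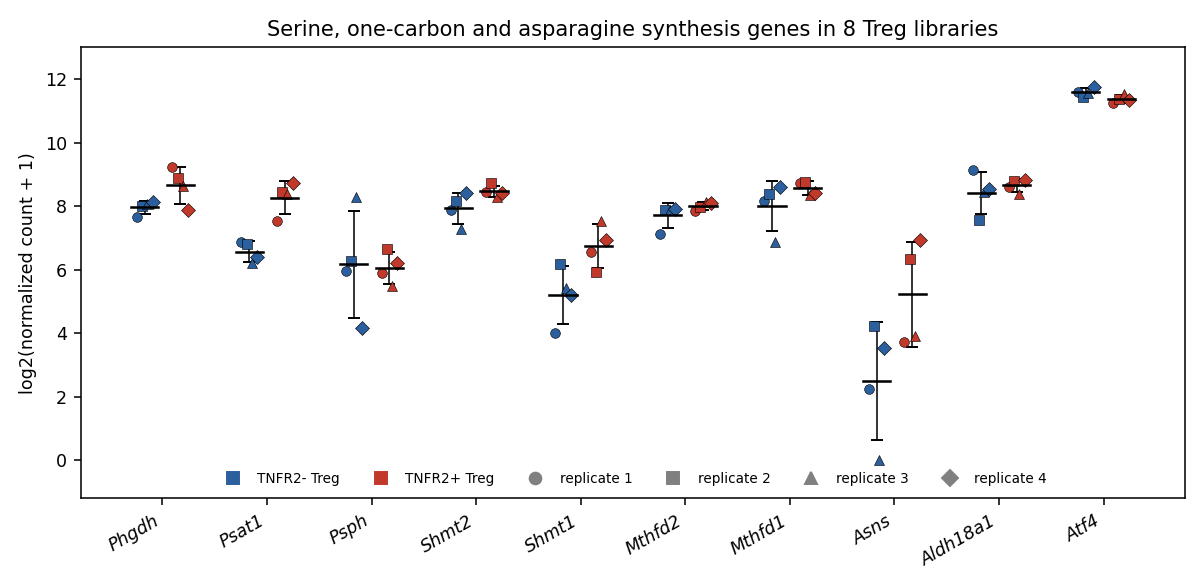
The log2(normalized count + 1) of each gene (y axis) in the 4 TNFR2- (blue) and 4 TNFR2+ (red) Treg libraries, with a marker shape per replicate number. Horizontal lines are means and bars are SD. The groups are apart only for *Psat1*, and *Asns* and *Psph* have the widest spread.

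The serine synthesis genes come first in the pathway. *Phgdh*, which encodes the NAD-dependent dehydrogenase of the opening step, lies on chromosome 3 from 98313170 to 98339990 (GRCm38). It had 601, 472, 399 and 232 normalized counts in TNFR2+ replicates 1 to 4 and 202, 257, 265 and 279 in TNFR2- replicates 1 to 4. Of the TNFR2+ libraries, 3 lay above every TNFR2- library, and replicate 4 lay below 3 of the 4 TNFR2- libraries. The fitted difference was 0.69 on the log2 scale (standard error 0.27, 95% interval 0.11 to 1.27, adjusted p = 0.138). Without TNFR2+ Treg replicate 4 it was 0.96 and passed the threshold (adjusted p = 0.0247). *Phgdh* has 8 near-identical pseudogenes in the annotation, of which 0 have a row in the table. Whether reads of these copies were counted as *Phgdh*, or the reverse, cannot be seen from the deposited values.

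*Psat1* encodes phosphoserine aminotransferase, which uses glutamate to aminate the product of Phgdh, and lies on chromosome 19 from 15904678 to 15947337. It had 183, 349, 329 and 419 normalized counts in TNFR2+ replicates 1 to 4 and 116, 110.1, 72.9 and 82.8 in TNFR2- replicates 1 to 4. The groups were fully apart, and the lowest TNFR2+ library, replicate 1, was the nearest to the TNFR2- group. The means were 320.1 ± 98.8 and 95.6 ± 21.0 (SD, n = 4), and the limma estimate was a log2 fold change of 1.70 (standard error 0.29, 95% interval 1.06 to 2.33, adjusted p = 0.00347). An exact two-sided permutation test over the 70 relabellings of the libraries gave p = 0.0286, the smallest value possible for 4 against 4. Groups that are fully apart always give this value, so it adds nothing to their separation. For the other genes of the 10, this test gave p from 0.0571 to 0.857, and none of these values is adjusted. Omitting any single library left the estimate between 1.55 and 1.94 (adjusted p from 0.00304 to 0.0173), and other processing of the 8 libraries gave an adjusted p from 0.00176 to 0.0286. Without TNFR2- Treg replicate 3 it was 1.58 (adjusted p = 0.00759), and *Psat1* remained the 1 gene of the 10 past the threshold. No near-identical copy of *Psat1* was found among annotated transcripts, while the antisense gene *Gm3329* overlaps it.

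Proliferation moved with the same contrast. *Mki67*, which encodes Ki-67, a protein of dividing cells, had 4120, 5041, 3553 and 2622 normalized counts in TNFR2+ replicates 1 to 4 and 837, 361, 814 and 295 in TNFR2- replicates 1 to 4 (log2 fold change 2.84, adjusted p = 3.52e-04). *Top2a*, another gene of dividing cells, was higher by 1.66 on the log2 scale (adjusted p = 0.00909), which missed the threshold when the intensity trend was dropped (0.0771). Neither *Psat1* nor *Mki67* overlapped between the groups, and the part of dividing cells in the *Psat1* difference was not tested. Within TNFR2+ Tregs replicate 4 had the highest *Psat1* and the lowest *Mki67*, but this is 1 library and no conclusion is drawn from it.

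*Psph* encodes the phosphatase that releases serine, and lies on chromosome 5 from 129765558 to 129787449. It had 58.8, 99.6, 43.4 and 72.4 normalized counts in TNFR2+ replicates 1 to 4 and 61.4, 75.5, 309 and 16.9 in TNFR2- replicates 1 to 4. The TNFR2- libraries held both the highest and the lowest value, and the highest came from replicate 3, the library that stood apart. The estimate was −0.11 on the log2 scale (95% interval −1.55 to 1.33, adjusted p = 0.949), and it was 0.59 without TNFR2- Treg replicate 3 (adjusted p = 0.564). *Psph* overlaps *Cct6a* on the other strand, as *Shmt1* does *Smcr8* and *Shmt2* does *Ndufa4l2*, and the strand setting of the counting is not given in the sources used here.

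Serine hydroxymethyltransferase is encoded by *Shmt1* for the cytosol and nucleus and by *Shmt2* for the mitochondria. *Shmt1* (chromosome 11 from 60788104 to 60811718) had 93.3, 59.1, 185 and 122 normalized counts in TNFR2+ replicates 1 to 4 and 14.998, 70.9, 42.2 and 35.5 in TNFR2- replicates 1 to 4. The groups overlapped only through TNFR2+ Treg replicate 2, which lay below TNFR2- Treg replicate 2. *Shmt1* had an estimate of 1.54 on the log2 scale (standard error 0.50, 95% interval 0.47 to 2.61, adjusted p = 0.0784), and the adjusted p lay between 0.0556 and 0.217 with each library left out. *Shmt2* (chromosome 10 from 127517123 to 127522444) had 345, 419, 314 and 342 normalized counts in TNFR2+ and 235, 284, 155 and 338 in TNFR2- replicates 1 to 4. Here TNFR2- Treg replicate 4 reached into the range of the TNFR2+ libraries. *Shmt2* had an estimate of 0.54 (95% interval 0.01 to 1.06, adjusted p = 0.209), and 0.32 without TNFR2- Treg replicate 3.

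The mitochondrial and the cytosolic enzyme were set against each other within each library. The difference of their log2 values, *Shmt2* less *Shmt1*, was 1.73 ± 0.85 in TNFR2+ and 2.73 ± 0.98 in TNFR2- Tregs (SD, n = 4). The populations differed by −1.004 on this scale, which did not pass an exact two-sided permutation test (p = 0.171, or 0.343 adjusted over 2 pairs of genes, with 0.0286 the smallest possible). For *Mthfd2* less *Mthfd1* the difference was −0.55 ± 0.34 and −0.30 ± 0.92, and the populations differed by −0.24 (exact two-sided permutation test, p = 0.8286, also after adjustment). That second value turned to 0.20 without TNFR2- Treg replicate 3.

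*Mthfd2*, whose product oxidizes folate-bound carbon in mitochondria and which is known for its high level in dividing cells, lies on chromosome 6 from 83305691 to 83325908. It had 229.7, 249.6, 282 and 271 normalized counts in TNFR2+ and 139, 235, 236 and 239 in TNFR2- replicates 1 to 4. Besides TNFR2- Treg replicate 1, which was low, the libraries lay close together. Its log2 fold change of 0.31 had a 95% interval of −0.19 to 0.81 (adjusted p = 0.469), and it was 0.12 without that library. *Mthfd1* (chromosome 12 from 76255298 to 76319803), the trifunctional cytosolic enzyme of folate, had 424, 434, 323 and 338 normalized counts in TNFR2+ and 285, 336, 115 and 389.8 in TNFR2- replicates 1 to 4. TNFR2- Treg replicate 3 was the low library, and the log2 fold change of 0.55 (95% interval −0.15 to 1.25, adjusted p = 0.338) was 0.17 without it.

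Among the genes of asparagine and proline, *Asns* had the largest estimate and the least certain one. It encodes asparagine synthetase, which takes nitrogen from glutamine, and lies on chromosome 6 from 7675169 to 7693254. The TGATGAAA match shown above is 23 bases before the RefSeq start and lies inside this GENCODE span. *Asns* had 12.1, 79.6, 13.9 and 122 normalized counts in TNFR2+ replicates 1 to 4 and 3.76, 17.5, 0 and 10.5 in TNFR2- replicates 1 to 4. The TNFR2+ libraries fell into a high pair, replicates 2 and 4, and a low pair, replicates 1 and 3, that lay below the highest TNFR2- library. Its estimate was 2.72 on the log2 scale (standard error 1.04, 95% interval 0.48 to 4.97, adjusted p = 0.133). This moved between 1.96 and 3.01 with the pseudocount, and was 1.89 without TNFR2- Treg replicate 3, where *Asns* is listed at 0. At values this low the counting error of a library is large. *Aldh18a1* encodes the enzyme that opens proline synthesis from glutamate, and lies on chromosome 19 from 40550257 to 40588463. It had 390.4, 440.2, 330.1 and 453 normalized counts in TNFR2+ and 559, 187, 345 and 368 in TNFR2- replicates 1 to 4. The TNFR2- libraries spanned the range of the TNFR2+ libraries on both sides. Its estimate was 0.24 (95% interval −0.37 to 0.84, adjusted p = 0.668), and −0.05 without TNFR2- Treg replicate 2.

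*Atf4* lies on chromosome 15 from 80255184 to 80257541, and its protein is controlled mainly at translation, so the RNA level does not give the amount of protein. It had 2446, 2667, 2969 and 2601 normalized counts in TNFR2+ and 3072, 2761, 3008 and 3442 in TNFR2- replicates 1 to 4. The TNFR2- libraries tended to be the higher, with TNFR2+ Treg replicate 3 inside their range. On the log2 scale the estimate was −0.20 (standard error 0.11, 95% interval −0.44 to 0.04, adjusted p = 0.319), and −0.10 after quantile normalization.

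**Figure D3:**
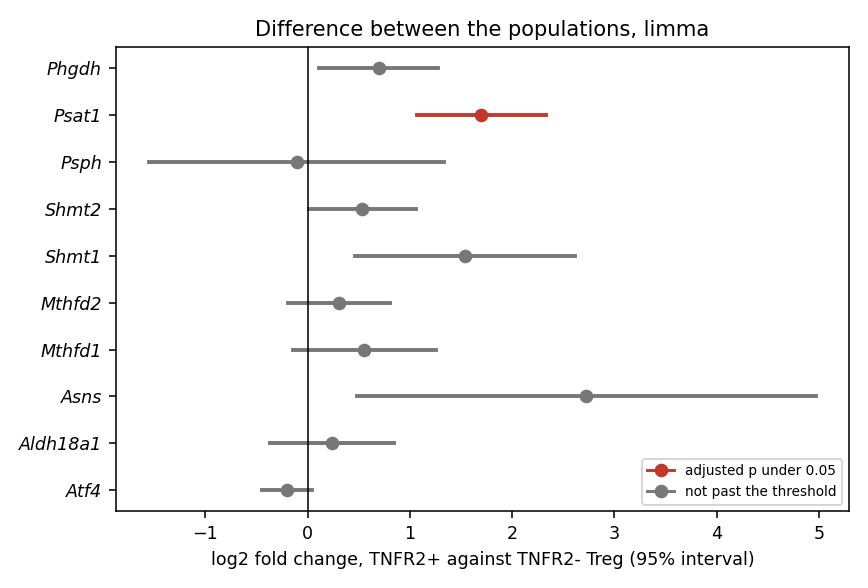
The log2 fold change of TNFR2+ against TNFR2- Tregs (x axis) for the 10 genes, with the 95% interval from limma. *Psat1*, in red at 1.70, passed the threshold, and the other 9, in grey, did not.

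The neighbouring pathways were described through 7 lists of other genes. The counts of each list are to be read beside the shares over all genes tested, 4.52% higher and 3.39% lower. With limma p unadjusted at 0.05 these shares were 12.3% and 10.7%, and 49.3% of all estimates lay above 0. No list was tested as a set, and the lists were chosen with earlier results of these data known. Serine and glycine handling had 12 tested genes of 15, with 0 higher and 1 lower (median log2 fold change 0.09). With limma p unadjusted at 0.05, 2 were higher and 1 lower. *Slc38a2*, a transporter of small neutral amino acids that is also an Atf4 target, fell in TNFR2+ Tregs. It had 1844, 2316, 2009.9 and 2342 normalized counts in TNFR2+ and 3138, 3509, 3147 and 3514 in TNFR2- replicates 1 to 4, with no overlap (log2 fold change −0.65, adjusted p = 0.00442, and 0.0601 without the intensity trend). *Slc1a5* and *Slc1a4*, which carry glutamine, serine and other neutral amino acids, had estimates of 0.48 (adjusted p = 0.0713) and 0.49 (adjusted p = 0.691) on that scale.

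The folate cycle list had 16 tested genes of 17, with 0 higher and 1 lower (median 0.21, 12 estimates above 0). With limma p unadjusted at 0.05, 4 were higher and 3 lower. *Fpgs*, which adds the glutamate tail that keeps folate in the cell, was the lower gene. It had 27.1, 64.1, 48.9 and 54.4 normalized counts in TNFR2+ and 446, 100.2, 204.7 and 78.1 in TNFR2- replicates 1 to 4 (log2 fold change −1.80, adjusted p = 0.0444). The TNFR2- libraries were all the higher, but spread widely among themselves, and *Fpgs* lost the threshold in 7 of 8 fits that left out a library (adjusted p up to 0.122), all but the fit without TNFR2- Treg replicate 4. Without TNFR2- Treg replicate 3 its adjusted p was 0.0875, and the list then had 1 higher and 0 lower. *Mthfd1l*, the mitochondrial enzyme that releases formate, had an estimate of 0.42 (adjusted p = 0.171). *Tyms*, which makes thymidylate for DNA synthesis, was at 0.17 (adjusted p = 0.693). Of the 11 tested genes of the methionine cycle, 0 passed in either direction (with limma p unadjusted, 0 higher and 2 lower at 0.05), with a median of 0.01, and without TNFR2- Treg replicate 3 the count was 0 higher and 1 lower. Of the 14 tested genes for asparagine, proline and glutamate, 0 passed (with limma p unadjusted, 2 higher and 1 lower at 0.05), with a median of 0.30. *Pycr1*, which completes proline synthesis in mitochondria, had between 0 and 12.2 normalized counts and was not tested.

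Of 20 listed genes downstream of Atf4 or encoding the kinases that lead to its translation, 15 were tested. The genes that passed were 0 higher and 2 lower, against 4.52% and 3.39% of all genes tested. Of the estimates, 11 lay above 0 (median 0.13), against 49.3% of all genes. With limma p unadjusted at 0.05, 4 genes were higher and 2 lower, against 12.3% and 10.7% of all genes. *Ppp1r15a*, whose product GADD34 directs the removal of phosphate from eIF2α, had 10483, 11389, 12856 and 11564 normalized counts in TNFR2+ and 17444, 20453, 17488 and 20234 in TNFR2- replicates 1 to 4. The groups lay far apart (log2 fold change −0.71, standard error 0.10, adjusted p = 9.75e-04), and the adjusted p lay from 0.00135 to 0.00557 when single libraries were omitted. Quantile normalization reduced its estimate to −0.46 (adjusted p = 0.00446). *Eif2ak3*, which encodes the eIF2α kinase PERK of the endoplasmic reticulum, had 706 ± 123 and 1122 ± 127 normalized counts (SD, n = 4; log2 fold change −0.68, adjusted p = 0.0189). It lost the threshold without TNFR2+ Treg replicate 2 (adjusted p = 0.0673), without TNFR2- Treg replicate 1 (0.0591) and without the intensity trend (0.0840). *Ddit3* and *Trib3*, which encode the stress factors CHOP and TRB3, had estimates of 0.45 (adjusted p = 0.196) and −0.97 (adjusted p = 0.550).

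Amino acid transporters had 10 tested genes of 12, with 2 higher and 0 lower (also 2 higher and 0 lower with limma p unadjusted at 0.05), although the median was −0.21. *Slc36a4*, which carries proline and tryptophan, had 378, 385, 208 and 318 normalized counts in TNFR2+ and 156, 121, 147 and 73.9 in TNFR2- replicates 1 to 4 (log2 fold change 1.38, adjusted p = 0.0114, and 0.0555 without the intensity trend). *Slc3a2*, the heavy chain of CD98, shared by several transporters, had 3310 ± 398 and 2299 ± 328 normalized counts (log2 fold change 0.53, adjusted p = 0.0290) and lost the threshold in 5 of 8 fits that left out a library (adjusted p up to 0.0946), keeping it without TNFR2+ Treg replicate 4 or TNFR2- Treg replicates 1 or 3. Its light chain partners *Slc7a5* and *Slc7a11* were at −0.28 (adjusted p = 0.398) and −0.20 (adjusted p = 0.781). Of 20 cytosolic aminoacyl-tRNA synthetase genes, many of them known Atf4 targets, *Eprs* rose and 0 fell (3 higher and 2 lower with limma p unadjusted at 0.05, median 0.09). *Eprs*, which charges glutamate and proline tRNAs, had 2776 ± 289 and 1997 ± 264 normalized counts (log2 fold change 0.48, adjusted p = 0.0389), and lost the threshold in 6 of 8 fits that left out a library (adjusted p up to 0.120), keeping it without TNFR2+ Treg replicate 4 or TNFR2- Treg replicate 3.

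**Figure D4:**
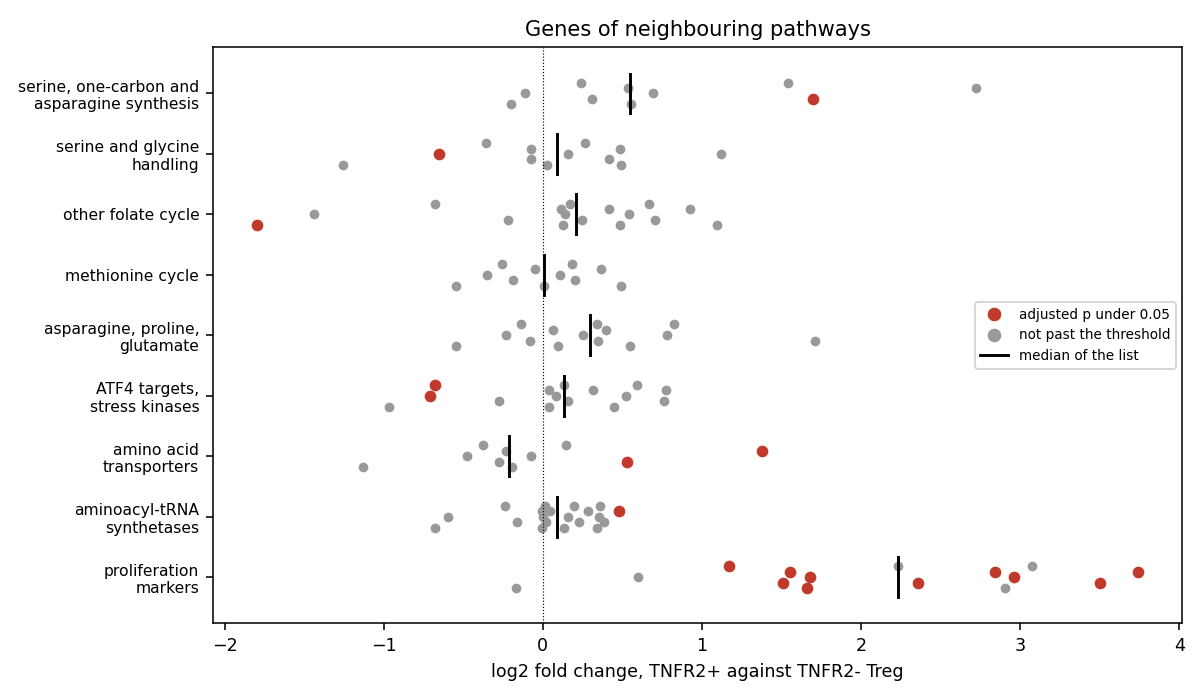
The log2 fold change of TNFR2+ against TNFR2- Tregs (x axis) for each tested gene of the 10 genes, of 7 lists of neighbouring pathways and of proliferation markers, a point per gene and a black line at the median of each list. Points past an adjusted p of 0.05 are red. The pathway lists have medians between −0.21 and 0.30, while the 15 proliferation markers have a median of 2.23.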

How the data were processed

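After a stranded total RNA kit and trimming with Trim Galore, the authors assigned reads to GRCm38 transcripts with Salmon 1.3.0, and DESeq2 1.28 scaled the gene totals. The deposited signal per gene is on this scale, without a logarithm. How transcripts were summed to genes is not given in the sources used here. Values of genes with several transcripts are not whole reads, so log2(normalized count + 1) was tested, in genes whose mean reached 10, with limma 3.58.1 in R 4.3.3 (group only, intensity trend, two-sided, Benjamini-Hochberg over 13990 genes). This replaces a count model such as the authors' and understates changes of low genes.

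Depth was estimated in 2806 long genes with 1 transcript, where 69.7% to 96.5% of values up to 12 lay within 0.1 of whole multiples of a step. The step of each library was chosen to make this share largest. The 20% given by chance holds for a step fixed in advance, so it understates what such a choice can reach. It covers counting error only. Symbols came from GENCODE (20008 of 20172 identifiers), and near-identical copies (95% identity over at least 0.5 of either transcript) from blastn 2.17.0. Exact tests used python 3.11.15, and the fit was tested on simulated data.

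The genes and lists were chosen with earlier results of these data known. Named are the 10 genes, every other listed pathway gene past the threshold, and *Mthfd1l*, *Tyms*, *Slc1a4*, *Slc1a5*, *Ddit3*, *Trib3*, *Pycr1*, *Slc7a5*, *Slc3a2*, *Slc7a11*, *Tnfrsf1b*, *Foxp3*, *Mki67* and *Top2a*. Some genes of this rule are not reported here. *Xbp1*, *Irf4*, *Prdm1*, *Nkg7*, *Cd8b1*, *Eomes*, *Prf1*, *Cd22*, *Ms4a1*, *Ebf1*, *Cd79b*, *Cd79a*, *Itga2b* and *Csf1r* were added once their values were known. So were *Ikzf2*, *Ikzf4*, *Ctla4*, *Nrp1*, *Cd3e*, *Il2ra*, *Pcna*, *Tk1* and *Ccnb1*. Alternatives were other pseudocounts, filters, scalings and variance moderation, a replicate block, and each library left out.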

Additional observations from a re-analysis of the deposited data

Results flagged for a closer look

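A library far from the other 3 of its group was found in 3 of 64 groups of 4 libraries over the named genes, and chance alone gives about 1 in 20. *Mthfd2* was low in TNFR2- Treg replicate 1, at 139.32 normalized counts against 235 to 239 in the others. *Trib3* was high in TNFR2+ Treg replicate 1, at 42.463 normalized counts against 2.87 to 9.44. *Slc7a5* was high in TNFR2+ Treg replicate 3, at 663.91 normalized counts against 419.87 to 429.54.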

How the results depend on the processing

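*Psat1* kept its direction and its side of the threshold under all alternatives tried, and it alone of the 10 genes passed in each of them except the fit without TNFR2+ Treg replicate 4, where *Phgdh* passed too. Groups share replicate numbers, but deviations of same-numbered libraries correlated at only −0.04 to 0.00, so the numbers were not read as pairs. With the replicate block, *Psat1* stayed at 1.70 (adjusted p = 0.00876), 1183 genes passed in all, 0 of the folate cycle list (*Fpgs*, adjusted p = 0.0709) and 1 of the asparagine, proline and glutamate list. The Shmt2 and Mthfd2 ratios within replicate numbers stayed at −1.004 and −0.24 and did not pass an exact sign-flip test (p = 0.25 and 0.75, where 4 pairs cannot go below 0.125).
Without the intensity trend 465 genes passed, against 1107, and the counts fell to 0 for serine and glycine handling, 0 for the folate cycle, 0 for amino acid transporters, 0 for the synthetases and 1 for Atf4 targets, which leaves *Ppp1r15a*. The cause was not tested. For asparagine, proline and glutamate, a minimum mean of 1 or no filter gave 1 gene and a minimum of 50 gave 2. At that minimum *Asns* could not be tested.
Over fits without a single library, counts ranged from 642 to 1301 for all genes, 1 to 2 for the 10 genes, 1 to 2 for serine and glycine handling, 0 to 1 for the folate cycle, methionine cycle, asparagine, proline and glutamate list and synthetases, and 1 to 2 for Atf4 targets and transporters. The direction of calls turned in 2 lists. The folate cycle, with 1 lower gene, had 1 higher and 0 lower without TNFR2- Treg replicate 1 or 3. The asparagine, proline and glutamate list had 1 higher without TNFR2+ Treg replicate 1 or 4 and 1 lower without TNFR2- Treg replicate 4. Log2 fold changes ranged from −0.78 to 0.59 for *Psph* (0.09 without TNFR2+ Treg replicate 3 and 0.59 without TNFR2- Treg replicate 3), −0.0485 to 0.48 for *Aldh18a1* and −0.49 to 0.20 for the Mthfd2 to Mthfd1 ratio, the values that turned direction. Quantile normalization and trimmed-mean scaling moved the median of all genes by −0.021 and −0.0048 on the log2 scale and turned no direction among the 10 genes.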
